A study of Homo sapiens with 4 samples.

Results

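The 10 genes described here encode 5 enzymes that finish and conjugate bile acids and 5 carriers that take bile acids and other organic anions up from blood. They were chosen by name (BAAT, SLC27A5, SLC27A2, ACOX2, AMACR, SLC10A1, SLCO1B1, SLCO1B3, SLCO2B1 and SLCO4C1), and all 10 symbols were matched to 1 Ensembl identifier each among the 62893 genes of the count tables. RNA sequencing was done on total RNA of cells of Hep-G2, a line derived from a human hepatoma. The shFTO cells carried the shRNA TRCN0000246247 against FTO, the RNA demethylase that acts on N6-methyladenosine, and the scramble cells carried the control shRNA SHC002. Both lines were at passage 21, and each group has 2 count tables, called runs here, of 20047409 to 20706611 reads. Each group is 1 shRNA in 1 line, so an effect of FTO loss, of the shRNA itself and of the line cannot be told apart.

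The runs of a group differed by no more than sampling noise (chi-square per degree of freedom 1.01 for shFTO over 13674 genes and 1.02 for scramble over 13359 genes, chi-square test p = 0.142 and p = 0.0648), against 118 to 120 between runs of different groups. Their reads were pooled and each group was counted as 1 sample, so no difference below has a replicate check, and intervals are exact 95% intervals that cover counting error only. Levels are CPM, the reads per 1000000 after library sizes were scaled with TMM, edgeR's trimmed mean of log ratios. FTO (ENSG00000140718) had 5.42 and 5.83 CPM in the shFTO runs, against 31.4 and 28.5 CPM in the scramble runs, and was 5.32-fold lower (4.63 to 6.13). All 12 hepatocyte markers passed the filter on low counts, and 7 of them were at least 2-fold lower in shFTO, where 6.19% of all genes that passed were. Their summed level was 18150 to 18200 CPM in the shFTO runs and 41820 to 41880 CPM in the scramble runs, and the part of this lower level in the values below was not tested. In bulk RNA, fewer cells of a type and less RNA per cell cannot be told apart.

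Hepatocytes make bile acids from cholesterol. The last steps take place in peroxisomes, where the side chain of a bile acid precursor is activated with coenzyme A, turned to the form the oxidase accepts, and shortened by beta-oxidation. The bile acid is then joined to glycine or taurine, which keeps it soluble, and is pumped into bile. Bile acids that return from the gut are taken up at the blood side of the cell by a sodium-dependent carrier and by organic anion transporting polypeptides, which also carry bilirubin, hormones and drugs.

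On GRCh38 BAAT lies on chromosome 9, SLC27A5 on 19, SLC27A2 on 15, ACOX2 on 3, SLC10A1 on 14 and SLCO2B1 on 11, AMACR and SLCO4C1 lie on 5, and SLCO1B1 and SLCO1B3 lie together in the SLCO1 cluster on 12. The promoters of 4 of them are printed because they belong to the conjugation pair and to the pair of carriers with no read in any run. RefSeq promoters (GRCh38.p14, 250 bases before to 50 bases after the start) were found for 9 of the 10 genes, all but ACOX2, and run 5′ to 3′ on the strand of the gene. Only motifs of HNF4, C/EBP and the bile acid receptor FXR were searched, on both strands, and capitals mark their matches. Of the 4 promoters shown, SLC27A5 alone has one. Motifs of other liver factors were not searched. SLCO1B1 lies at chr12:21130944-21131243 on the plus strand, SLCO1B3 at chr12:20810455-20810754 on the plus strand, SLC27A5 at chr19:58511943-58512242 on the minus strand and BAAT at chr9:101383515-101383814 on the minus strand, the last being 1 of 2 entries for that gene.
SLCO1B1: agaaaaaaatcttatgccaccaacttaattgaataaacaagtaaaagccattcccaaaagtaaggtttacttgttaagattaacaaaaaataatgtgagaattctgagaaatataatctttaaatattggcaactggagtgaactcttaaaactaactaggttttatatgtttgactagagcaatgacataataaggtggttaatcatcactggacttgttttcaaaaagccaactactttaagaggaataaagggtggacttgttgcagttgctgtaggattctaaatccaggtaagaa
SLCO1B3: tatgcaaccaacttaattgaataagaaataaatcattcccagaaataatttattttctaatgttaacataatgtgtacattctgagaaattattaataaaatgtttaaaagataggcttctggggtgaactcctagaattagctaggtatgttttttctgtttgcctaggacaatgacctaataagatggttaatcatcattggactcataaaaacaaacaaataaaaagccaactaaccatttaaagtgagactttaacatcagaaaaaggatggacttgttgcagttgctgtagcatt
SLC27A5: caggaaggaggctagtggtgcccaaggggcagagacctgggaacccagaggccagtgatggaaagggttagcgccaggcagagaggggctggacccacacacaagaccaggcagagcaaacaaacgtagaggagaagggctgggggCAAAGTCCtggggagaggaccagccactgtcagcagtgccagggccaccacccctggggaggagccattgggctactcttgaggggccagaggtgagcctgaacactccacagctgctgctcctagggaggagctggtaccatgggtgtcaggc
BAAT: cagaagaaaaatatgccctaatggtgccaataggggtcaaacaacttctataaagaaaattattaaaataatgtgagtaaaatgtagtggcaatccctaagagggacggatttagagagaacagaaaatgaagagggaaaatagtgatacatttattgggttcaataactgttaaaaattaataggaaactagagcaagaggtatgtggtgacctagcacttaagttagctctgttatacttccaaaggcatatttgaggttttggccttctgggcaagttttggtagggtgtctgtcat

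The 2 SLCO1B promoters share 82.8% of 261 aligned bases, a share that leaves out 78 gap positions of the alignment. The SLC27A5 promoter holds CAAAGTCC, part of an HNF4 site, 104 bases before the start, and the second SLCO2B1 promoter holds it on the other strand (1.2% of all promoters). TTGCNNAA, part of a C/EBP site, is found in the SLC10A1 and AMACR promoters and in 10.5% of all promoters, and the inverted repeat of the bile acid receptor FXR (GGTCA, any base, TGACC) is found in no promoter of the 9 genes and in 0.0114% of all 35116 promoters in the table. The motifs were chosen after the sequences were seen. A match describes letters and not binding.

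The promoters also divide by CpG content. The ratio of observed to expected CpG was 0.73 for SLC27A2, 0.65 for AMACR and 0.63 for SLCO4C1, near the median of 0.58 over all promoters (quartiles 0.23 and 0.86). It was 0.19 or less for every promoter of the other 6 genes found, with no CpG at all in those of SLCO1B1 and SLCO1B3. The 3 carriers with the fewest reads, SLC10A1, SLCO1B1 and SLCO1B3, were all among these 6, but so were SLC27A5 and SLCO2B1, which were well expressed.

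Bile acid conjugation genes were lower in shFTO, BAAT far more than SLC27A5. BAAT (ENSG00000136881), the enzyme that joins the activated bile acid to glycine or taurine, had 12 and 16 reads (0.56 and 0.729 CPM) in the shFTO runs, against 86 and 98 reads (4.55 and 5.07 CPM) in the scramble runs. The runs of the groups lay far apart. BAAT was 7.45-fold lower in shFTO (4.99 to 11.5), a log2 ratio of -2.90, and 0.748% of the 13767 genes that passed the filter had a ratio this low or lower.

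SLC27A5 (ENSG00000083807), the bile acyl-CoA synthetase that activates bile acids for BAAT, had 162 and 220 reads (7.56 and 10.02 CPM) in the shFTO runs, against 251 and 258 reads (13.3 and 13.4 CPM) in the scramble runs. Both shFTO values were below both scramble values, but the shFTO runs also stood apart from each other, with counting intervals of 6.44 to 8.82 and 8.74 to 11.4 CPM that barely met. SLC27A5 was 1.51-fold lower (1.32 to 1.73), or 1.76-fold lower with shFTO run 1 alone and 1.33-fold lower with shFTO run 2 alone. On a GRCh38 annotation, 14.1% of its exon bases are shared with ZNF446 on the other strand. ZNF446 held 216 reads over all 4 runs, and without a known strand setting the reads of such stretches cannot be assigned.

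**Figure D1:**
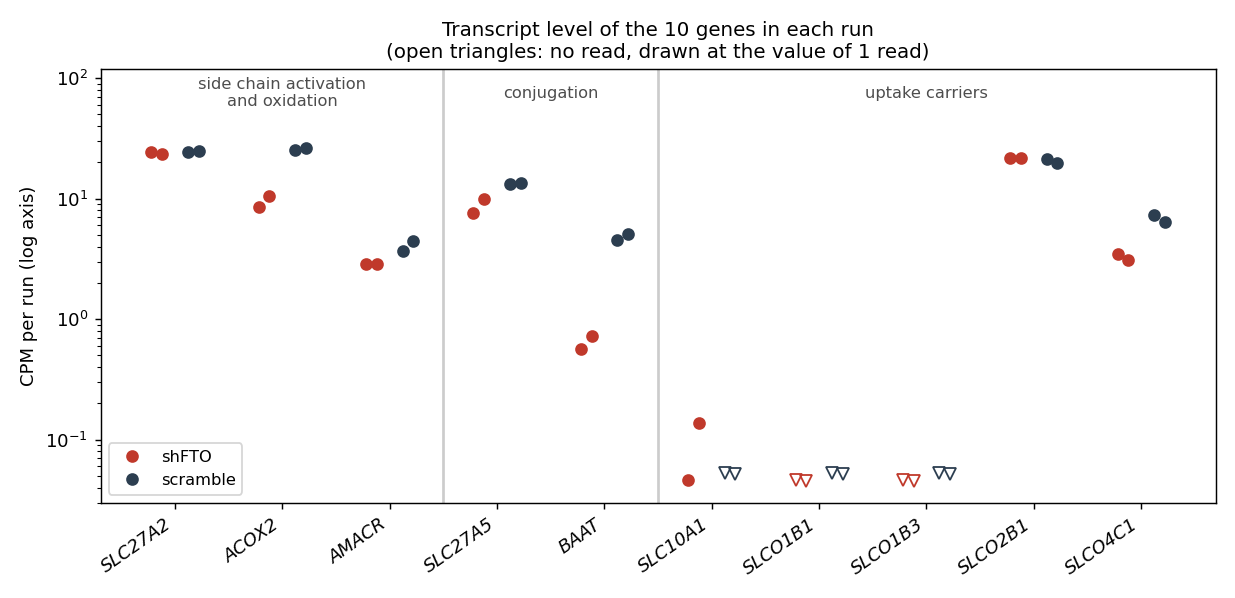
Level of each of the 10 genes in each run, in CPM on a log axis, with shFTO in red left of scramble in dark blue; open triangles are runs with no read, drawn at the value of 1 read. ACOX2, SLC27A5, AMACR, BAAT and SLCO4C1 lie lower in both shFTO runs than in both scramble runs, SLC27A2 and SLCO2B1 are nearly level, and SLCO1B1 and SLCO1B3 have no read.

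The enzymes of side chain shortening differed among themselves. ACOX2 (ENSG00000168306), the branched-chain acyl-CoA oxidase that starts the beta-oxidation of the side chain, had 182 and 233 reads (8.50 and 10.6 CPM) in the shFTO runs, against 481 and 510 reads (25.4 and 26.4 CPM) in the scramble runs. The groups were well apart, and ACOX2 was 2.71-fold lower (2.41 to 3.05) in shFTO, a log2 ratio of -1.44. Of all genes that passed the filter, 3.25% had a ratio this low or lower.

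AMACR (ENSG00000242110), the racemase that turns the side chain to the form the oxidase accepts, had 61 and 63 reads (2.85 and 2.87 CPM) in the shFTO runs, against 70 and 86 reads (3.70 and 4.45 CPM) in the scramble runs. The groups did not overlap, yet the scramble runs differed from each other by nearly as much as the lower of them differed from shFTO. AMACR was 1.43-fold lower (1.12 to 1.82), and 1.30-fold lower with scramble run 1 alone. On the same annotation 9.82% of its exon bases are shared with a gene on its own strand, which had no read.

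SLC27A2 (ENSG00000140284), a very long-chain acyl-CoA synthetase that activates bile acid precursors, had 518 and 513 reads (24.2 and 23.4 CPM) in the shFTO runs, against 457 and 481 reads (24.2 and 24.9 CPM) in the scramble runs. The groups overlapped, and the shFTO level was 0.969 times that of scramble (0.886 to 1.06). The direction turned with the scaling. The log2 ratio was -0.05 with TMM, 0.00 with upper quartile scaling and 0.12 with plain library sizes, which moved the median of all genes by 0.17. For SLC27A2, 19.9% of exon bases are shared with ATP8B4, which held 20 reads over all runs.

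Among the uptake carriers, the hepatocyte-restricted ones were nearly or wholly without reads in both groups. SLC10A1 (ENSG00000100652), the sodium-dependent bile acid carrier NTCP, had 1 and 3 reads in the shFTO runs, against 0 and 0 in the scramble runs. The 4 reads in all were too few for the filter, and the counting interval of the ratio reached below 1 (lower end 0.582), so no direction was read. SLCO1B1 (ENSG00000134538) and SLCO1B3 (ENSG00000111700), which encode the liver carriers OATP1B1 and OATP1B3, had 0 reads in all 4 runs. A count of 0 allows up to 0.0692 CPM in shFTO and 0.0785 CPM in scramble.

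The zero of SLCO1B3 has a limit of its own. On the GRCh38 annotation 54.5% of its exon bases are shared on the same strand with the SLCO1B3-SLCO1B7 readthrough gene, and 13.5% of those of SLCO1B1 with an unnamed gene, and reads over shared stretches may have been left uncounted. Both overlapping genes also had 0 reads. Of the other members of the SLCO1 family, SLCO1C1 and SLCO1B7 had no read either, and SLCO1A2 had 3 and 1 reads in the shFTO runs, against 1 and 0 in the scramble runs.

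SLCO2B1 (ENSG00000137491), which encodes OATP2B1, a widely expressed carrier of steroid sulphates and drugs, was the main organic anion carrier transcript of the set. It had 465 and 474 reads (21.7 and 21.6 CPM) in the shFTO runs, against 406 and 385 reads (21.5 and 19.9 CPM) in the scramble runs. The lower shFTO value and the higher scramble value differed by less than the counting error of 1 run. The shFTO level was 1.05 times that of scramble (0.951 to 1.15), and 1.18 times with plain library sizes, a value outside that interval.

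SLCO4C1 (ENSG00000173930), which encodes OATP4C1, a carrier known from kidney tubules, had 74 and 68 reads (3.46 and 3.10 CPM) in the shFTO runs, against 138 and 123 reads (7.30 and 6.36 CPM) in the scramble runs. The groups were apart. SLCO4C1 was 2.09-fold lower (1.69 to 2.58) and lay just inside the 2-fold threshold used here for counts. It was 1.95-fold lower with scramble run 2 alone, 1.98-fold with shFTO run 1 alone and 1.86-fold with plain library sizes.

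Of the 10 genes 7 passed the filter, and 3 of these, BAAT, ACOX2 and SLCO4C1, were at least 2-fold lower in shFTO, where 6.19% of all 13767 genes were. None was at least 2-fold higher, where 5.18% of all genes were. SLC27A5, at 1.51-fold, was the next below the threshold. The median log2 ratio of the 7 was -0.60, beside 0.01 over all genes that passed. With p-values of edgeR's quasi-likelihood test adjusted over all genes after Benjamini and Hochberg, 5 of the 7 were lower, beside 33.4% of all genes, namely BAAT, ACOX2, SLCO4C1, SLC27A5 and AMACR. The same test called 0 of the 7 higher, beside 33.2% of all genes, also 0 at an unadjusted p under 0.05 and 0 by DESeq2. DESeq2 called 4 lower, all but AMACR. The shares of all genes called by DESeq2 or at an unadjusted p were not worked out. As the runs show no spread beyond sampling, these calls compare the libraries and not the conditions.

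**Figure D2:**
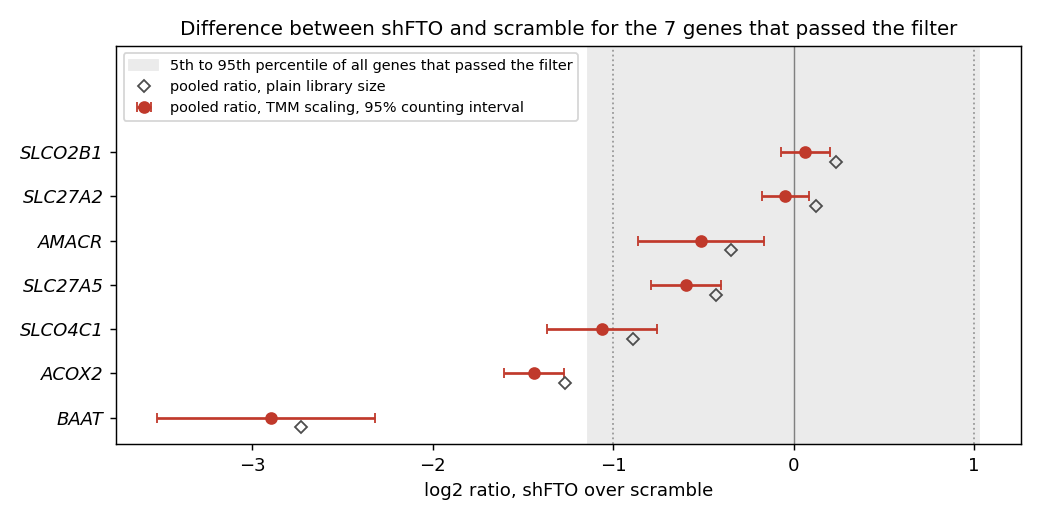
Log2 ratio of shFTO over scramble for the 7 genes that passed the filter, with 95% counting intervals (red) and the value with plain library sizes (open diamonds); dotted lines mark 2-fold and the grey band runs from -1.14 to 1.03, the 5th to 95th percentiles of all genes. BAAT and ACOX2 lie below the band, SLCO4C1 at its edge, and SLC27A2 and SLCO2B1 at 0.

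Levels of different genes were compared as reads per kilobase of 1 coding transcript per 1000000 reads. This was the longest coding transcript, with those tagged CCDS (consensus coding sequence) taken first. In shFTO SLC27A2 stood first at 9.93 (9.33 to 10.6), followed by SLCO2B1 at 4.82 (4.51 to 5.14), ACOX2 at 3.94 (3.57 to 4.34) and SLC27A5 at 3.73 (3.37 to 4.12). The intervals of ACOX2 and SLC27A5 overlapped with this length. AMACR at 0.688 and SLCO4C1 at 0.614 followed, also with overlapping intervals, and BAAT was last at 0.191 (0.127 to 0.276).

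In scramble ACOX2 at 10.7 (10.03 to 11.4) and SLC27A2 at 10.2 (9.60 to 10.9) stood first with overlapping intervals, ahead of SLC27A5 at 5.64 (5.16 to 6.15) and SLCO2B1 at 4.6 (4.29 to 4.94). BAAT at 1.43 (1.23 to 1.65), SLCO4C1 at 1.28 (1.13 to 1.44) and AMACR at 0.982 (0.834 to 1.15) were the lowest, each overlapping the next. With the length of all annotated exons in place of that coding transcript, SLCO2B1 stood above SLC27A5 in scramble too (1.999 against 1.66). ACOX2 then stood second in both groups. In shFTO ACOX2 was then at 2.48 and SLC27A5 at 1.10, and SLCO4C1 at 0.614 stood above AMACR at 0.591. BAAT kept the last place in shFTO and the fifth in scramble with either length.

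**Figure D3:**
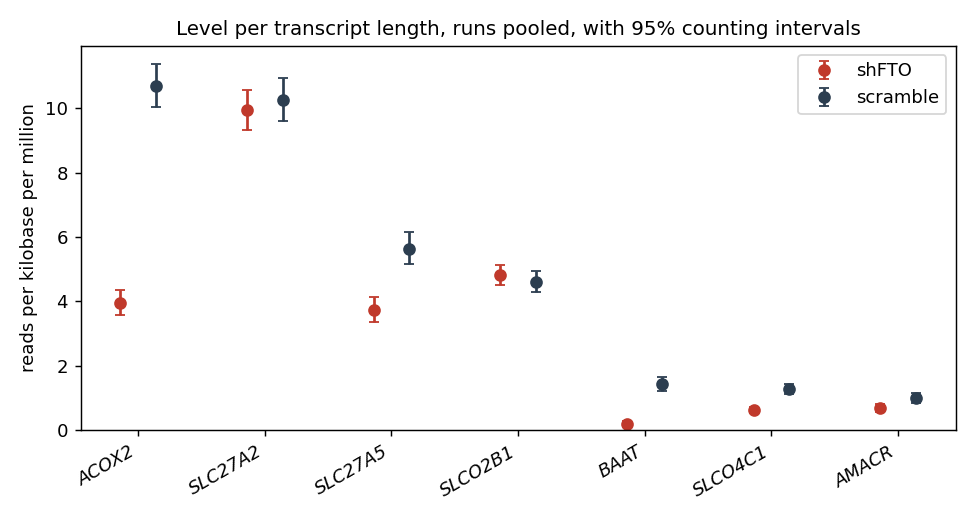
Reads per kilobase per 1000000 reads for the 7 genes, runs pooled, shFTO in red left of scramble in dark blue, with 95% counting intervals. ACOX2 and SLC27A2 are level in scramble and far apart in shFTO, and BAAT, 1.43 in scramble, is the lowest of the genes in shFTO at 0.191.

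The rest of the pathway was described with 8 lists of 134 other genes, of which 99 passed the filter. In these lists 15 genes (15.2%) were at least 2-fold lower and 4 (4.04%) at least 2-fold higher. Over all genes that passed, the shares were 6.19% and 5.18%. Bile acid synthesis enzymes had 8 genes that passed, 2 of them at least 2-fold lower and none higher, with a median log2 ratio of -0.33. By edgeR 6 of the 8 were lower and 1 higher, beside 33.4% and 33.2% of all genes. CYP8B1, the sterol hydroxylase that directs synthesis towards cholic acid, had 3 and 8 reads in the shFTO runs, against 58 and 48 reads in the scramble runs. It was 10.9-fold lower (5.87 to 22.6) at 0.254 CPM in shFTO, against 2.77 CPM in scramble, and 19.8-fold lower with shFTO run 1 alone. AKR1D1, the reductase that gives bile acids their bent ring system, was 2.32-fold lower (1.99 to 2.71). ABCD3, which brings the precursors into peroxisomes, was 1.32-fold higher (1.28 to 1.37), and the next enzyme of side chain oxidation after ACOX2, HSD17B4, was 1.33-fold lower (1.30 to 1.36). CYP7A1, the rate-limiting enzyme, was picked after its values were seen. It had 7 and 6 reads in the shFTO runs, against 1 and 2 in the scramble runs, a ratio of 3.82 (1.05 to 20.9), and did not pass the filter.

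Of 26 other peroxisomal genes none was 2-fold lower or higher, where 6.19% and 5.18% of all genes were. Their median log2 ratio was -0.20, and edgeR called 13 lower and 8 higher, beside 33.4% and 33.2% of all genes. PHYH, which starts the alpha-oxidation of phytanic acid, was 1.90-fold lower (1.76 to 2.06), the thiolase ACAA1 1.72-fold lower (1.65 to 1.80), the peroxisome proliferation factor PEX11A 1.64-fold lower (1.43 to 1.87) and the isomerase ECI2 1.63-fold lower (1.55 to 1.71). PEX7, an import receptor for peroxisomal matrix proteins picked here for its zeros after the values were seen, had 0 and 1 reads in the shFTO runs and 0 and 0 in the scramble runs. It shares no exon bases with another gene of the tables on the GRCh38 annotation.

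The relatives of the acyl-CoA synthetases SLC27A2 and SLC27A5 were mostly lower. Of 8, 4 were at least 2-fold lower and 1 at least 2-fold higher, all of them ACSL genes, with a median of -0.81. The count at least 2-fold lower was 2 with plain library sizes. Over all genes 6.19% were at least 2-fold lower and 5.18% higher. Of the 8, edgeR called 6 lower and 1 higher, beside 33.4% and 33.2% of all genes. The long-chain synthetase ACSL4 had 326 CPM in shFTO, against 889 CPM in scramble, 2.73-fold lower (2.67 to 2.78). ACSL6 was 2.35-fold lower (1.80 to 3.09) and ACSL3 2.22-fold lower (2.17 to 2.28), while ACSL1 was 2.19-fold higher (2.07 to 2.32). In the list of thioesterases and N-acyltransferases, relatives of BAAT by structure or by reaction, only 6 thioesterases passed the filter. None of these was 2-fold lower or higher (median -0.29), where 6.19% and 5.18% of all genes were. EdgeR called 4 of the 6 lower and 1 higher, beside 33.4% and 33.2% of all genes. ACOT1 was 1.53-fold lower (1.39 to 1.68), a value that may hold reads of its close copy ACOT2, which was 1.32-fold lower (1.25 to 1.40). ACOT7 was 1.38-fold lower (1.30 to 1.46) and ACOT11 1.38-fold higher (1.12 to 1.70).

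Only 3 of 14 other SLCO and SLC10 genes passed the filter, with a median of -0.94. EdgeR called 2 of the 3 lower, beside 33.4% of all genes. SLC10A7 was 2.0-fold lower (1.77 to 2.28), at the threshold itself. It fell under the threshold with plain library sizes, with upper quartile scaling, with scramble run 1 alone and with shFTO run 1 alone. SLCO4A1, a carrier of thyroid hormone, was 1.91-fold lower (1.75 to 2.09). SLC10A3 had a ratio of 1.08 (0.984 to 1.19). Of 13 other uptake carriers of the blood side 3 were at least 2-fold lower and none higher (median -0.44). Over all genes the shares were 6.19% and 5.18%. EdgeR called 9 of the 13 lower and 2 higher, beside 33.4% and 33.2% of all genes. The glucose carrier SLC2A2 had 0.784 CPM in shFTO, against 4.26 CPM in scramble, and was 5.44-fold lower (3.74 to 8.12). The citrate carrier SLC13A5 was 2.42-fold lower (2.32 to 2.52) and the urate carrier SLC2A9 2.36-fold lower (2.13 to 2.61), whereas the carnitine carrier SLC22A5 was 1.64-fold higher (1.42 to 1.89).

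Exporters and regulators were split. Of 15 genes of the export list 2 were at least 2-fold lower and 2 higher (median -0.06). Over all genes the shares were 6.19% and 5.18%. EdgeR called 5 of the 15 lower and 7 higher, beside 33.4% and 33.2% of all genes. Of the 2 at least 2-fold higher, ABCC3 is an exporter and EPHX1 an enzyme. ABCC3, which pumps conjugates back into blood, had 127 CPM in shFTO, against 47.3 CPM in scramble, and was 2.69-fold higher (2.55 to 2.84). EPHX1, an epoxide hydrolase, was 2.19-fold higher (2.1 to 2.28). ABCG2 was 2.39-fold lower (2.19 to 2.62), and SLC51A, a subunit of the bile acid exporter of the blood side, 2.40-fold lower (1.98 to 2.91). The canalicular bile salt pump ABCB11, named after its values were seen, had 1 and 1 reads in the shFTO runs, against 1 and 0 in the scramble runs.

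Of 20 bile acid sensors and regulators 3 were at least 2-fold lower and 1 higher, with a median of 0.00. With plain library sizes 2 were at least 2-fold higher. Over all genes 6.19% were at least 2-fold lower and 5.18% higher. EdgeR called 9 of the 20 lower and 10 higher, beside 33.4% and 33.2% of all genes. NR0B2, the repressor induced by the bile acid receptor, was 3.06-fold lower (2.76 to 3.39), ONECUT1 2.60-fold lower (2.13 to 3.19) and NR5A2, an activator of bile acid synthesis genes, 2.30-fold lower (1.80 to 2.96). CEBPA was 3.16-fold higher (2.62 to 3.84). Some further regulators are named after their values were seen. NR1H4, the bile acid receptor FXR, had 70.2 CPM in shFTO, against 49.5 CPM in scramble, 1.42-fold higher (1.34 to 1.5). FGFR4 and its partner KLB, which receive the gut signal that restrains bile acid synthesis, were 1.57-fold (1.54 to 1.61) and 1.78-fold (1.71 to 1.86) higher. HNF4A was 1.32-fold lower (1.28 to 1.35).

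**Figure D4:**
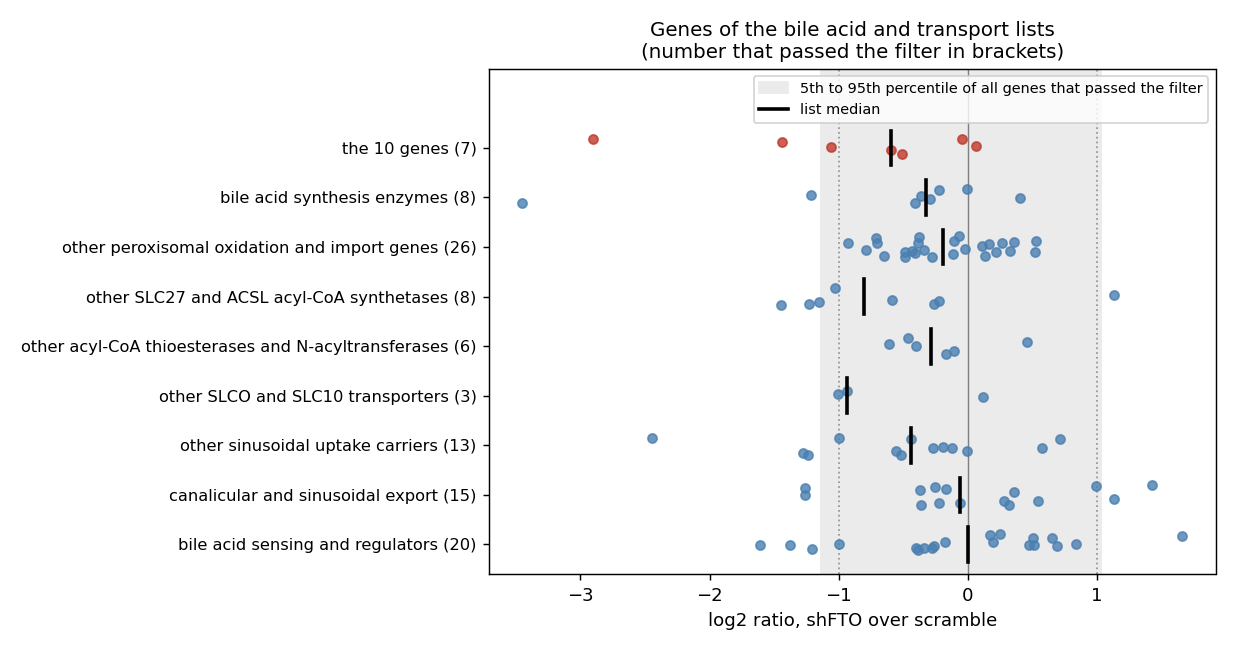
Log2 ratio of shFTO over scramble for each gene that passed the filter, by list, with the list median as a black bar; dotted lines mark 2-fold and the grey band the 5th to 95th percentiles of all genes. The 7 of the 10 genes that passed have a median of -0.60, the relatives of the acyl-CoA synthetases -0.81, and the export and regulator lists medians of -0.06 and 0.00 with genes on both sides.

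Markers of other cell types were read beside these values. Of 9 matched cholangiocyte markers 6 passed the filter, and their summed level was 2114 to 2121 CPM in the shFTO runs and 1732 to 1742 CPM in the scramble runs. KRT7 had 34 and 45 reads in the shFTO runs and none in the scramble runs. It was 23.2-fold higher when 3 reads were set for the pooled scramble runs, and 18.4-fold was the lower end of its counting interval. With 3 reads set for scramble run 1 alone it was 11.5-fold higher. KRT19 was 1.97-fold higher (1.92 to 2.02), the level of SLC4A2 was 1.31 times that of scramble (1.26 to 1.36) and that of EPCAM 1.29 times (1.26 to 1.32), SOX9 was 1.48-fold lower (1.44 to 1.52), and AQP1 was at 0 in all runs. Kidney and intestinal markers summed to 460 to 467 CPM in the shFTO runs and 492 to 497 CPM in the scramble runs, with UMOD and AQP2 at 0. Among the 5 that passed the filter, the log2 ratio was 0.92 for CDH16, -0.30 for PAX8, -0.22 for LGR5 and -0.06 for VIL1. Among the hepatocyte markers FGB was 52.9-fold lower (42.9 to 66.0) and TTR 19.8-fold lower (16.3 to 24.1), with APOC3 and AHSG 3.55-fold and 3.71-fold lower. Chosen after their values were seen, APOB was 1.41-fold lower (1.40 to 1.42) and CPS1, the one marker of the 12 that edgeR called higher, was 1.54-fold higher (1.43 to 1.65). Of 14 fibroblast, endothelial and blood cell markers 3 passed, and 7, among them PECAM1, PTPRC and DCN, were at 0 in all runs. COL1A1, a fibroblast collagen, was 23.8-fold higher (9.95 to 74.5) at 3.11 CPM in shFTO, and PDGFRB 6.42-fold lower (5.42 to 7.66). ACTA2 had a log2 ratio of 0.10. The part of these levels in the values of the 10 genes was not tested.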

How the data were processed

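The deposited values are counts of reads per Ensembl gene, 1 table per run, made by the authors with TopHat2 2.1.1 and HTSeq 0.6.0 on hg19, per the submitters' processing notes. The strand setting and annotation release are not given in the sources used here. Symbols were found for 51537 of 62893 genes, and genes without one held 0.623% of reads. Lengths and exon overlaps came from GENCODE, on GRCh38, and promoters from RefSeq; the readthrough gene of C1QTNF3 and AMACR was not analysed here.

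Reads were scaled by TMM and tested with edgeR 4.0.16 (R 4.3.3, limma 3.58.1; filterByExpr, glmQLFit and glmQLFTest, two-sided, Benjamini-Hochberg adjusted p under 0.05), without a replicate block, with DESeq2 1.42.0 as an alternative. The fit was tested on simulated data. Group ratios came from the pooled reads with Clopper-Pearson 95% intervals, in Python 3.11.15 with scipy 1.17.1. A count of 0 was read as at most 3 reads over the pooled runs. Depth was 20047409 to 20706611 reads per run, and PCR copies are not independent molecules.

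The 10 genes, the 12 lists and the motifs were chosen with earlier results of these data known, the motifs also after the promoters were seen. Besides FTO and the 10 genes, the text names up to 4 genes per list with the largest ratio at a mean of at least 1 CPM, and list genes with 0 reads in 1 group and at least 20 in the other; other genes are said to be chosen after their values were seen, or are named for an overlap or as defining markers at 0. Alternatives were plain library sizes, upper quartile scaling, DESeq2 size factors, other filters, other fold thresholds, exon-union lengths, a replicate block and leaving out each run.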

Additional observations from a re-analysis of the deposited data

How the results depend on the processing

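The replicate numbers do not pair the runs. The correlation of deviations from the group means between runs of the same number was 0.00177 over 13767 genes, and with the replicate number as a block edgeR still called 5 of the 7 genes lower and 0 higher.

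Of the 10 genes, 3 were at least 2-fold lower, 4 at least 1.5-fold and 1 at least 4-fold. Leaving out each run in turn gave 2 to 3 genes at least 2-fold lower and 4 to 5 called lower by edgeR. SLCO4C1 went under 2-fold without scramble run 1 or shFTO run 2, and AMACR lost its edgeR call without scramble run 2. Plain library sizes moved the median of all genes by 0.17 on the log2 scale. With them edgeR called 1 gene higher, SLCO2B1 at a log2 ratio of 0.23, and AMACR was not called. Of the 99 genes of the pathway lists, 25 were lower and 9 higher at a threshold of 1.5-fold, and 2 lower and 0 higher at 4-fold. The cause of these changes was not tested beyond the thresholds themselves. The shares of all genes at 1.5-fold and 4-fold were not worked out. Neither were those with a run left out, with the replicate block or with plain library sizes. The counts under these settings, also those of the 10 genes, therefore have no background beside them. Of the 7 genes that passed the filter, SLC27A2 alone changed direction under these scalings; its log2 ratio was -0.05 with TMM, 0.12 with plain library sizes and 0.00 with upper quartile scaling. With 1 sample in each group after pooling, variation between cultures could not be measured, and BAAT rests on 28 reads in shFTO.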
